A study of Mus musculus with 5 samples.

Results

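The 10 genes described here encode the subunits and the main inhibitors of the transcription factor NF-κB: the 5 subunit genes Nfkb1, Nfkb2, Rel, Rela and Relb, and the 5 inhibitor and regulator genes Nfkbia, Nfkbiz, Nfkbie, Tnfaip3 and Bcl3. They were taken by symbol from the 47729 genes of the deposited count table, and each symbol matched 1 gene. All 10 passed the filter on low counts, which 19011 genes passed. The libraries were made from dermal group 2 innate lymphoid cells (dILC2s), lymphocytes of the skin without antigen receptors, which were sorted fresh from skin as CD45+CD90hi cells outside a CD2/CD3 gate and were not stimulated. There were 3 libraries from wild-type (WT) C57BL/6 mice, named pools 5, 6 and 13, and 2 libraries labelled Rag1-/-, named pools 2 and 7, from C57BL/6 mice without the Rag1 gene product and therefore without mature T and B cells. All mice were females of 8 to 13 weeks. Every library was a pool, of 10 mice in WT and of 9 mice in the libraries labelled Rag1-/-. The labels give 30 WT and 16 Rag1-/- mice in all. The cell type field of the labels names type 2 cells for the WT libraries and type 3 cells for the libraries labelled Rag1-/-, although the protocol text of the same labels names dILC2s throughout. The genotype comparison asked whether the RNA of dILC2s differs between mice with and without Rag1. In Rag1-/- mice every cell lacks Rag1 and the T and B cells are missing too, so a difference of the dILC2s themselves and a difference of their surroundings cannot be told apart.

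NF-κB proteins bind DNA as pairs of subunits. RELA, REL and RELB carry a domain that activates transcription, whereas p50 and p52 are cut from the longer products of Nfkb1 and Nfkb2. In resting cells IκB proteins such as the products of Nfkbia and Nfkbie hold the pairs in the cytoplasm, and receptors of the TNF, IL-1 and Toll-like families release them through kinases that mark the IκB protein for destruction. NF-κB in turn raises the transcription of several of its own inhibitors and subunits, a feedback for which Nfkbia and Tnfaip3 are well known. In ILC2s the pathway lies downstream of the IL-33 receptor and of TNF-family receptors such as DR3.

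The feedback acts through κB sites in promoters, and the matches to the κB consensus in the promoter windows of the members are shown here. RefSeq windows from 250 bases before to 50 bases after the transcription start (GRCm38.p6) were given for 7 of the 10 members, and none was given for Nfkb1, Relb and Nfkbiz. The consensus has 10 letters, opens with GGG and closes with CC, and was searched by its usual definition on both strands, with overlapping matches merged. A match on the opposite strand therefore opens with GG and closes with CCC as printed below. Nfkbia, Bcl3 and the Tnfaip3 match nearest to the start are of this kind. It was present in the windows of 6 of these 7 members (85.7%), all but Rela, and in 5.14% of the 27025 genes with a window. Of the other NF-κB pathway genes listed below, 20 of 70 with a window held a match (28.6%), and of the target genes among them 11 of 23 (47.8%). Each sequence is given 5′ to 3′ on the strand of its gene, the match is in capitals, and positions count from the transcription start, with bases before it negative.
Nfkb2, first start, -39 to -29 (chr19:46304688-46304717, + strand): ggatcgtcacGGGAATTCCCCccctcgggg
Nfkb2, first start, -11 to -2 (chr19:46304716-46304745, + strand): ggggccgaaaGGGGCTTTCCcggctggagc
Nfkb2, second start, 11 to 20 (chr19:46305695-46305724, + strand): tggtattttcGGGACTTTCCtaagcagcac
Rel, -92 to -82 (chr11:23771042-23771071, - strand): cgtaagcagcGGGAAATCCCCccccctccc
Nfkbia, -29 to -20 (chr12:55492657-55492686, - strand): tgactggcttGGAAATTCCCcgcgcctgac
Nfkbie, -106 to -97 (chr17:45555584-45555613, + strand): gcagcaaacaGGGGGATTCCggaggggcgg
Tnfaip3, -125 to -116 (chr10:19015516-19015545, - strand): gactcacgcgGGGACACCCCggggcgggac
Tnfaip3, -12 to -3 (chr10:19015403-19015432, - strand): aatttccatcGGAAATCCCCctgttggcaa
Bcl3, 3 to 12 (chr7:19822734-19822763, - strand): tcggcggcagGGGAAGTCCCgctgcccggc
Nfkb2 had matches in the window of each of its 3 RefSeq starts, of which 1, far upstream of the second start, is not printed and 1 lies in the windows of both the second and the third start. Tnfaip3 had 2 matches at its first start and none at its second. A match is a description of these letters and does not show that a factor was bound there. The members with a match included genes whose levels stood apart between the genotypes (Nfkb2, Nfkbie, Tnfaip3) and genes whose levels overlapped (Rel, Nfkbia, Bcl3).

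**Figure D1:**
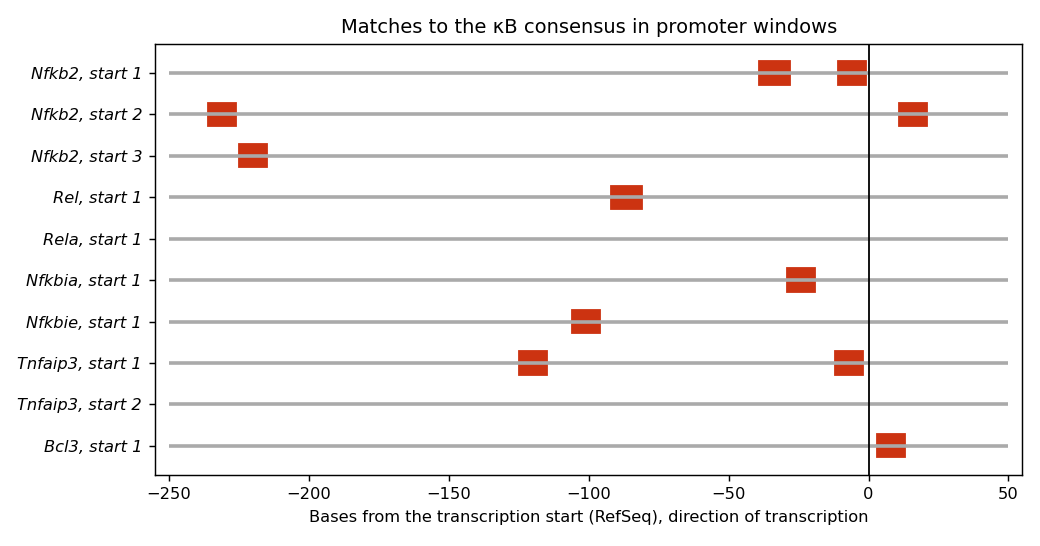
Matches to the κB consensus (red boxes) in the RefSeq promoter windows of 7 members, drawn along the direction of transcription with the x axis in bases from the transcription start (black line); each row is 1 annotated start. Matches lie in the windows of 6 of the 7 members, and the Rela row holds none.

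Total counts were 32939428 to 39477243 in the WT libraries, 38922750 in Rag1-/- pool 7 and 8050562 in Rag1-/- pool 2, the shallowest library. Every member was well covered, from 517 counts (Bcl3 in Rag1-/- pool 2) to 99698 counts (Tnfaip3 in WT pool 6), so counting error was at most 4.40% of a value. The targeted gene itself, Rag1, was counted 4, 0 and 5 times in WT. In the pools labelled Rag1-/- 2 and 7 it was counted 5 and 48 times, and since the deleted part of the gene and the position of these reads are not given in the sources used here, its counts did not check the labels. Summed levels of 2 marker lists moved with the genotype. A list of 30 leukocyte markers summed to 1168 to 2858 CPM (counts per 1000000 counts of the library) in WT and 8161 to 9446 CPM in the pools labelled Rag1-/-. Of these markers 22 of 30 passed the test upward, beside 3.57% of all genes, and WT pool 5 held the lowest sum. A list of 25 keratinocyte markers summed to 35405 to 51854 CPM in WT and 8854 to 20905 CPM in the pools labelled Rag1-/-. Of these markers 8 of 25 passed the test downward, beside 2.16% of all genes. None of the markers of either list was at 0 in any library. Ptprc, which encodes CD45, the protein used for sorting, had levels of 122, 421 and 341 CPM in WT pools 5, 6 and 13 and of 1177 and 623 CPM in the pools labelled Rag1-/- 2 and 7. Keratinocytes, fibroblasts and leukocytes all use NF-κB, so each level of a member below is that of the sorted mixture, in which more cells of a type and more RNA per cell cannot be told apart. The part of the mixture in the differences between genotypes was not tested.

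No member passed the test in the comparison of genotypes, although the levels of several subunits and inhibitors did not overlap between the groups. Nfkb1, Nfkb2, Relb, Nfkbie and Tnfaip3 had higher levels in both pools labelled Rag1-/- than in all 3 WT pools, and Nfkbiz had lower ones, on counts scaled to all genes. Rel, Rela, Nfkbia and Bcl3 overlapped. The test was edgeR's quasi-likelihood test on the counts with Benjamini-Hochberg adjustment over all 19011 genes, and a call needed both an adjusted p under 0.05 and a log2 fold change beyond 1 in either direction. It called 0 of the 10 members, and 1090 of all genes tested (5.73%), of which 679 (3.57%) were higher and 411 (2.16%) lower in the pools labelled Rag1-/-. With edgeR, Relb alone had an adjusted p under 0.05, and its fold change was under the threshold. With DESeq2 the adjusted p was under 0.05 for Relb (0.000285), Nfkb2 (0.00386), Nfkbie (0.00891), Nfkbiz (0.0112) and Nfkb1 (0.0144), and only Nfkbie was also past the fold threshold. The groups did not overlap for 6 of 10 members, beside 45.9% of all genes tested (21.9% higher and 24% lower). Of the 10 members 8 had a positive log2 fold change, as did 51.4% of all genes tested. The median log2 fold change was 0.80 over the 5 subunits, 0.12 over the 5 inhibitors and regulators and 0.02 over all genes tested.

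These directions depended on what the libraries were scaled to. Scaled on the 30 leukocyte genes in place of all genes, every member was lower in the pools labelled Rag1-/-, from a log2 fold change of -1.08 (Nfkbie) to -2.91 (Nfkbiz), and the median of all genes tested moved to -2.28. This scaling moves all genes by nearly the same amount, so values relative to that median had to stay close to those scaled to all genes. They were 0.98 for Nfkb1, 0.81 for Nfkb2, 0.85 for Relb, 1.20 for Nfkbie and -0.62 for Nfkbiz, and are no separate support. Fold changes below are therefore differences relative to the bulk of the genes in these libraries. On this scaling 6 members were called lower (Rel, Rela, Nfkbia, Nfkbiz, Tnfaip3 and Bcl3), beside 73.7% of all genes that were lower and 73.8% that were called in all. Other settings called at most 1 member. None was called with edgeR on library size alone (5.89% of all genes called), with RLE scaling (5.58%) or with limma on the deposited signal (6.06%). Nfkbie was called, as higher, with DESeq2 (13% of all genes), with no filter on low counts (8.84%), with at least 10 counts in every library (10.6%) and with thinned counts (8.89%), and Relb was called on the adjusted p alone (6.27%).

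**Figure D2:**
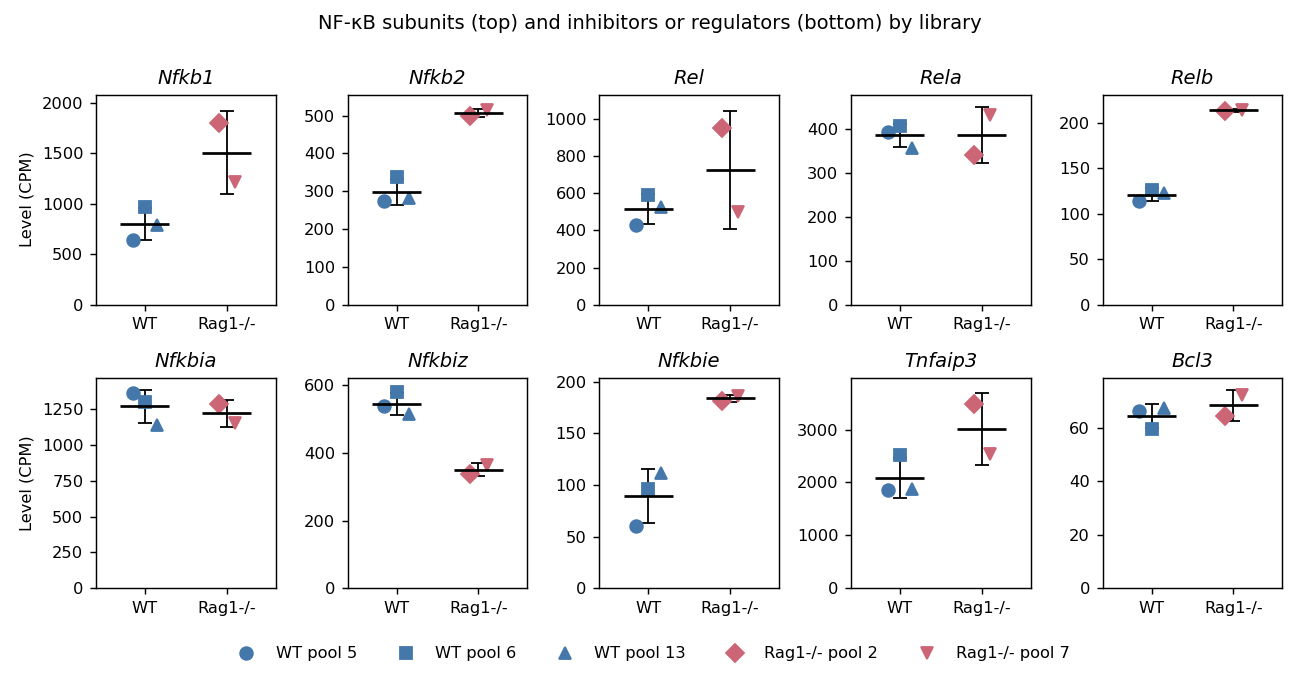
Level of each member in CPM (y axis, starting at 0) in the 3 WT pools (blue) and the 2 pools labelled Rag1-/- (red); horizontal lines are means and error bars are SD. Nfkb2, Relb and Nfkbie show a gap between the groups with both red points close together, Nfkbiz shows the opposite order on this scale, and Rela, Nfkbia and Bcl3 overlap.

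Among the subunits, Nfkb1, the gene of p105 and p50 (chr3:135584655-135691547, GRCm38), had levels of 643, 966 and 791 CPM in WT pools 5, 6 and 13 and of 1796 and 1214 CPM in the pools labelled Rag1-/- 2 and 7. Both of the latter lay above every WT pool, and pool 2 was well above pool 7. The means were 800 ± 161 CPM (SD, n = 3) and 1505 ± 412 CPM (n = 2), a log2 fold change of 0.94 with a standard error (SE) of 0.28 and an adjusted p of 0.0910 with edgeR. Without Rag1-/- pool 7 the log2 fold change of Nfkb1 was 1.12 and it was called (adjusted p 0.0450, beside 12.7% of all genes), with the lone pool assumed to vary like the WT pools.

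Nfkb2, the gene of p100 and p52 (chr19:46304737-46312090), had levels of 273, 338 and 282 CPM in WT and of 499.7 and 513 CPM in the pools labelled Rag1-/-. The groups stood apart, and the latter pools were nearly equal although their depths differed. The means were 298 ± 35.0 CPM (n = 3) and 507 ± 9.71 CPM (n = 2), with a log2 fold change of 0.80, an SE of 0.21 and an adjusted p of 0.0661. Exons of Nfkb2 share 830 bases with Psd and a long noncoding RNA on the other strand, and the library kit did not mark strand.

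Relb, the partner of p52 in the noncanonical branch of the pathway (chr7:19606217-19629438), was even within both groups. Its levels were 114, 127 and 123 CPM in WT and 213 and 215 CPM in the pools labelled Rag1-/-. Every one of the latter was above every WT pool, and the spread within either group was small beside the gap. The means were 121 ± 6.70 CPM (n = 3) and 214 ± 1.44 CPM (n = 2), the log2 fold change was 0.85 with an SE of 0.18, and the adjusted p was 0.0401 with edgeR, the smallest of the 10 members.

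Rel, the gene of c-Rel, a subunit typical of lymphoid cells (chr11:23736847-23770970), had levels of 430, 593 and 524 CPM in WT and of 951 and 499 CPM in the pools labelled Rag1-/-. Only pool 2 lay above WT, and pool 7 lay among the WT pools. The log2 fold change was 0.51 with an SE of 0.31 and an adjusted p of 0.342, and it rested on pool 2: it was 0.03 without pool 2 and 0.84 without pool 7.

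Rela, the gene of p65, the partner of p50 in the classical dimer (chr19:5637483-5648130), had levels of 394, 407 and 357 CPM in WT and of 342 and 431 CPM in the pools labelled Rag1-/-. The WT values lay between the other pools, one of which was the lowest and one the highest of the 5 libraries. The means were 386 ± 26.0 CPM (n = 3) and 387 ± 63.2 CPM (n = 2), and the log2 fold change was 0.04 with an SE of 0.22 and an adjusted p of 0.941. Its direction was not fixed, with values from -0.22 (without Rag1-/- pool 7) to 0.24 (without Rag1-/- pool 2).

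Among the inhibitors, Nfkbia, the gene of IκBα (chr12:55489411-55492647), had levels of 1364, 1298 and 1141 CPM in WT and of 1288 and 1152 CPM in the pools labelled Rag1-/-. The groups overlapped completely. The means were 1268 ± 114 CPM (n = 3) and 1220 ± 96.6 CPM (n = 2), with a log2 fold change of -0.03, an SE of 0.22 and an adjusted p of 0.962. Its sign turned without WT pool 5 or 6, with 0.03 as the highest value.

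Nfkbie, the gene of IκBε (chr17:45555716-45563169), had the largest log2 fold change of the 10 members. Its levels were 60.1, 96.3 and 111 CPM in WT and 182 and 186 CPM in the pools labelled Rag1-/-. The groups stood apart, WT pool 5 was the lowest library, and the spread lay in WT and not in the other group. The means were 89.2 ± 26.3 CPM (n = 3) and 184 ± 3.39 CPM (n = 2), a log2 fold change of 1.08 with an SE of 0.27 and an adjusted p of 0.0640. Nfkbie was the member nearest to a call: with DESeq2 its adjusted p was 0.00891 at a log2 fold change of 1.05, and with every library thinned to 8050562 counts it was 0.0417 at 1.10.

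Nfkbiz, the gene of IκBζ, a nuclear protein that works with p50 at a subset of target genes (chr16:55811375-55838899), was the one member with lower levels in both pools labelled Rag1-/- under the scaling to all genes. Its levels were 538, 578 and 515 CPM in WT and 336 and 363 CPM in the pools labelled Rag1-/-. The gap between the groups was larger than the spread within either. The means were 543 ± 31.9 CPM (n = 3) and 350 ± 18.8 CPM (n = 2), and the log2 fold change of -0.60, with an SE of 0.21, did not pass the test (adjusted p 0.123). Nfkbiz is known to be induced in keratinocytes too, and the 25 keratinocyte markers had a median log2 fold change of -1.56. Their part in the level of Nfkbiz was not tested.

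Tnfaip3, the gene of the ubiquitin-editing enzyme A20 (chr10:19000910-19015657), had the highest CPM of the 10 members in every library, with 1856, 2525 and 1869 CPM in WT and 3484 and 2533 CPM in the pools labelled Rag1-/-. The groups stood apart only by the small step from WT pool 6 to Rag1-/- pool 7. The means were 2083 ± 383 CPM (n = 3) and 3009 ± 672 CPM (n = 2), with a log2 fold change of 0.56, an SE of 0.28 and an adjusted p of 0.254.

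Bcl3, the gene of an IκB-like nuclear coactivator of p50 and p52 (chr7:19808462-19822770), had levels of 66.1, 59.4 and 67.4 CPM in WT and of 64.2 and 72.3 CPM in the pools labelled Rag1-/-. The groups overlapped. The log2 fold change was 0.12 with an SE of 0.18 and an adjusted p of 0.729, and it was -0.05 without Rag1-/- pool 7. An antisense gene shares 161 exonic bases with Bcl3.

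The choice of library mattered differently for the members. WT pool 5, the library with the least leukocyte RNA, was the lowest WT library for 6 of 10 members, and WT pool 6 was the highest for 7 of 10. Rag1-/- pool 2 was above pool 7 for 4 of 10. Over all genes the number of calls was 0 without any one of the 3 WT pools or without Rag1-/- pool 2, and 2414 without Rag1-/- pool 7.

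**Figure D3:**
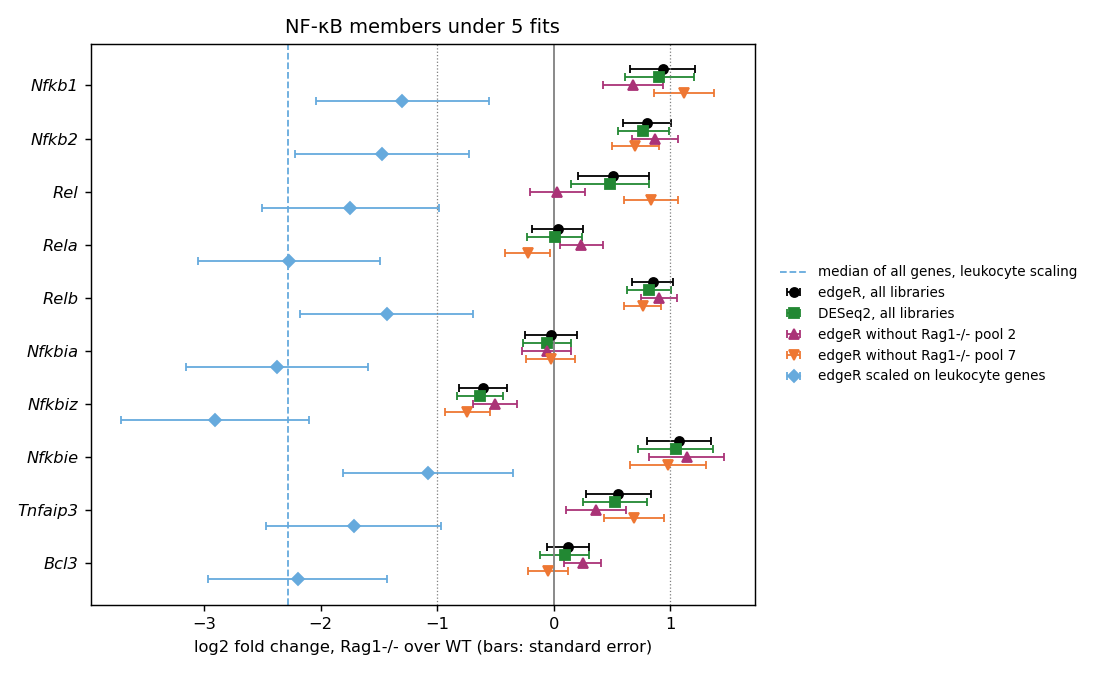
Log2 fold change of each member, libraries labelled Rag1-/- over WT, from 5 fits (x axis; bars are SE); the dashed blue line is the median of all genes when libraries are scaled on 30 leukocyte genes, and the dotted lines mark the fold threshold. Scaled to all genes, Nfkb1, Nfkb2, Relb and Nfkbie are positive and Nfkbiz is negative with either pool labelled Rag1-/- left out, Rel lies near 0 without pool 2, and every member is negative on the leukocyte scaling.

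Compared per length of transcript, the members kept a wide range of levels. In WT, Nfkbia was the highest at 803.5 CPM per kilobase of its longest coding transcript, followed by Tnfaip3 at 471 and Nfkb1 at 194 CPM per kilobase. Rela (142), Nfkbiz (132), Nfkb2 (77.4), Rel (69.0), Relb (54.9), Nfkbie (36.6) and Bcl3 (34.8 CPM per kilobase) followed in this order. The 2 feedback inhibitors thus stood above all subunits. Neighbours in this order overlapped in WT for Rela and Nfkbiz, for Nfkb2 and Rel, and for Nfkbie and Bcl3, and the other neighbours did not. By the means of the 2 pools labelled Rag1-/- the first 4 places and the last 2 were the same. Nfkb2 (132 CPM per kilobase), Rel (97.1) and Relb (96.8) came next, and Nfkbiz (85.0) was 8th. The order of these means did not hold in either pool alone. In pool 2 Rela (126 CPM per kilobase) lay below Nfkb2 (130) and Rel (127). In pool 7 Rel (66.8) lay below Relb (97.2), Nfkbiz (88.2) and Nfkbie (76.5). The place of Nfkb1 depended on the length used, since by the merged length of its exons it was 6th in WT.

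Ratios of counts within a library do not depend on how the libraries are scaled. Rela itself, however, lay near the median of all genes (log2 fold change 0.04, beside a median of 0.02). Ratios to Rela therefore had to stay close to the fold changes scaled to all genes, and are no separate support. The count of Relb was 0.289, 0.311 and 0.346 times that of Rela in WT pools 5, 6 and 13 and 0.622 and 0.498 times in the pools labelled Rag1-/- 2 and 7. The ratio of Nfkb2 to Rela was 0.692, 0.829 and 0.789 in WT and 1.46 and 1.19 in the pools labelled Rag1-/-. Both ratios were higher in both pools labelled Rag1-/- than in every WT pool. They are ratios of reads, not corrected for transcript length, and show the difference between libraries and not which gene had more transcripts. The ratio of Nfkb1 to Rela was 1.63, 2.37 and 2.21 in WT and 5.25 and 2.81 in the pools labelled Rag1-/-, and that of Nfkbie to Rela was 0.152, 0.236 and 0.312 against 0.531 and 0.432. That of Nfkbiz to Rela was 1.36, 1.42 and 1.44 in WT and 0.984 and 0.841 in the pools labelled Rag1-/-, and it stood apart in the other direction. In all, 5 of 9 ratios to Rela did not overlap between the groups, 4 of them higher in the pools labelled Rag1-/- and 1 lower, beside 42.8% of all genes (19.7% higher and 23.1% lower). The ratios of Rel, Nfkbia, Tnfaip3 and Bcl3 to Rela overlapped.

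Set against Ptprc, the same counts gave another picture. The ratio to Ptprc was lower in both pools labelled Rag1-/- than in every WT pool for 7 of 10 members (Nfkb1, Rel, Rela, Nfkbia, Nfkbiz, Tnfaip3 and Bcl3), beside 71.6% of all genes that were lower in this way (1.12% were higher, and 72.7% did not overlap in all). The mean log2 ratio differed by -1.73 for Rela, by -1.78 for Nfkbia and by -2.36 for Nfkbiz. Nfkb2 (-0.95), Relb (-0.90) and Nfkbie (-0.63) were the members whose ratios to Ptprc overlapped. Rag1-/- pool 7 lay among the WT pools for each of the last 3.

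**Figure D4:**
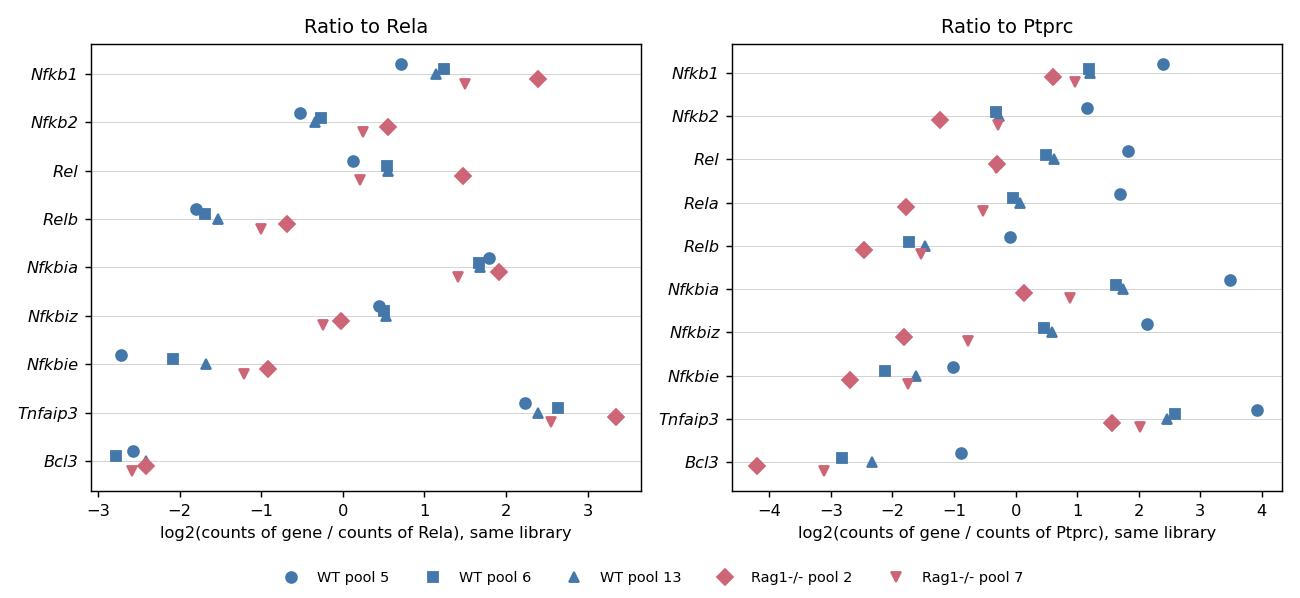
Log2 of the count of each member over the count of Rela (left) or Ptprc (right) in the same library (x axes), for 3 WT pools (blue) and 2 pools labelled Rag1-/- (red). Against Rela, Nfkb1, Nfkb2, Relb and Nfkbie lie to the right and Nfkbiz to the left in both red pools; against Ptprc no member lies to the right, and WT pool 5 is the rightmost library throughout.

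The other genes of the pathway were taken as 6 lists of 88 genes in all, every one of which was tested. The lists were chosen with earlier results of these data known, so their share of calls is no independent support. Of these, 13 passed the test upward and 0 downward in the pools labelled Rag1-/- (14.8%, beside 5.73% of all genes), with a median log2 fold change of 0.39. On the leukocyte scaling 0 were called higher and 58 of 88 lower (65.9%, beside 73.7% of all genes). The median relative to all genes was 0.37 on the main scaling and had to stay close to it, at 0.39, on the leukocyte scaling. On that scaling Csf2 had a log2 fold change of 1.16, Ccl5 0.75, Traf1 0.25, Map3k14 -0.82 and Irak2 -1.21, none of them called. All 13 calls were lost without any one WT pool or without Rag1-/- pool 2, when 0 of all genes were called. Without Rag1-/- pool 7, 12 of the 88 genes were called, 8 higher and 4 lower, beside 12.7% of all genes.

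At the top of the pathway, 5 of 19 receptors passed the test upward and none passed it downward. Of all genes, 3.57% passed it upward and 2.16% downward. All 5 were TNF-receptor family genes (Tnfrsf4, Tnfrsf25, Tnfrsf9, Tnfrsf18 and Tnfrsf1b), while Tnfrsf1a, Ltbr and Cd40 of the same family did not pass. Of the 19 receptors 14 had a positive and 5 a negative log2 fold change. Tnfrsf4, the gene of OX40, had levels of 11.9, 23.5 and 18.6 CPM in WT and of 75.3 and 106 CPM in the pools labelled Rag1-/- (log2 fold change 2.36, SE 0.32, adjusted p 0.0306 with edgeR). Tnfrsf25, the gene of DR3, had 11.9, 32.9 and 25.1 CPM against 130 and 103 CPM (2.35, SE 0.40, adjusted p 0.0309). The levels of both in the pools labelled Rag1-/- were several times those of WT, whereas the IL-33 receptor gene Il1rl1 overlapped, with 8.17, 52.1 and 31.8 CPM in WT and 161 and 40.4 CPM in the pools labelled Rag1-/- (1.71, adjusted p 0.211). On the leukocyte scaling the log2 fold changes of Tnfrsf4 and Tnfrsf25 were 0.23 and 0.27. These receptors are themselves carried by lymphocytes, and the 30 leukocyte markers had a median log2 fold change of 2.02, whose part in these levels was not tested.

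Of 19 adaptors and ubiquitin ligases, 3 passed upward (beside 3.57% of all genes), among them Traf1 and Irak2. Traf1, an adaptor of TNF-family receptors and itself a known NF-κB target, had levels of 55.1, 139 and 106 CPM in WT and of 505 and 486 CPM in the pools labelled Rag1-/- (log2 fold change 2.34, SE 0.37, adjusted p 0.0306). Its groups stood far apart, and those of Irak2, an adaptor of IL-1 and Toll-like receptors, by less (1.05, SE 0.20, adjusted p 0.0360). The median of the list was 0.48.

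Of 11 kinases and their partners, only Map3k14 passed, upward, beside 3.57% of all genes. It encodes NIK, the kinase that starts the cutting of p100, and its levels were 55.7, 104 and 92.0 CPM in WT and 181 and 227 CPM in the pools labelled Rag1-/- (log2 fold change 1.32, SE 0.30, adjusted p 0.0479). With limma its adjusted p was 0.0513. With a library left out its log2 fold change was 1.06 to 1.52 and it was not called, as was the case for every gene in 4 of these 5 fits. The IκB kinase genes Chuk (0.12), Ikbkb (0.37) and Ikbkg (0.31) had log2 fold changes that did not pass, and the median of the list was 0.12.

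None of the 4 other genes of the IκB family and its partners and none of the 11 other negative regulators passed. Nfkbid, the gene of the nuclear protein IκBNS, came nearest in the first list, with 52.5, 112 and 76.2 CPM in WT and 232 and 172 CPM in the pools labelled Rag1-/- (log2 fold change 1.35, SE 0.33, adjusted p 0.0566). The groups stood apart, as for its relative Nfkbie, and it was called with DESeq2 (adjusted p 0.00377). Nkiras2, the gene of a small protein that binds IκB, had -0.41 (adjusted p 0.542). Among the negative regulators, Tnfaip8l2 had 2.13 (SE 0.49, adjusted p 0.0503) and Tnip1, the gene of a partner of A20, had 0.73 (SE 0.20, adjusted p 0.0728).

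Of 28 classical target genes, 5 passed upward (Ccl5, Traf1, Csf2, Bcl2l1 and Tnf) and none downward, with a median log2 fold change of 0.40. Of all genes, 3.57% passed upward and 2.16% downward. Traf1 is in the adaptor list as well. Csf2, the gene of the cytokine GM-CSF, had levels of 1.88, 5.07 and 6.13 CPM in WT and of 56.1 and 24.2 CPM in the pools labelled Rag1-/- (log2 fold change 3.22, SE 0.54, adjusted p 0.0307). Ccl5, a chemokine gene, had 0.799, 1.14 and 1.73 CPM against 7.95 and 9.61 CPM (2.89, SE 0.41, adjusted p 0.0306). The list as a whole went both ways: 19 of the 28, the 5 called ones among them, had a positive and 9 a negative log2 fold change. Il6 (-1.13, adjusted p 0.139) and Ccl20 (-0.88, adjusted p 0.324), chosen here after their values were seen, were the lowest.

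**Figure D5:**
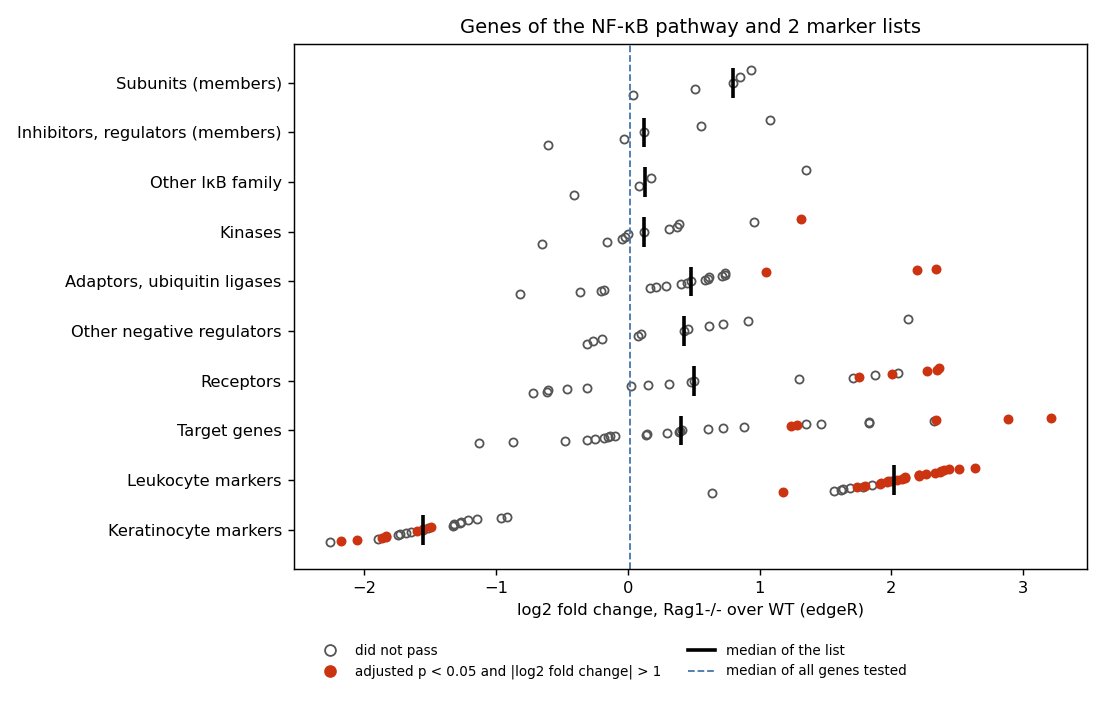
Log2 fold change (x axis; libraries labelled Rag1-/- over WT, edgeR, scaled to all genes) of every gene of the member lists, the 6 other pathway lists and the leukocyte and keratinocyte marker lists; filled points passed the test and black bars are list medians. The calls of the pathway lists are all on the right, 13 of 88 genes, no member is filled, and the marker lists lie apart at medians of 2.02 and -1.56; scaled on leukocyte genes none of the 13 is called higher.

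The markers of single cell types, given for the same libraries, were as follows. Of 14 ILC2 markers 4 passed upward (median log2 fold change 1.89), of 7 ILC3 markers 4 (3.53), of 10 T cell markers tested 4 (1.23) and of 8 NK and ILC1 markers 2 (2.33), and none of any of these lists passed downward. Over all genes tested, 3.57% passed upward and 2.16% downward. The lists of B cell, myeloid, mast cell, fibroblast, endothelial and melanocyte markers held no call, with medians from -1.53 to 0.29. The mast cell list summed to 137 to 276 CPM in WT and to 420 to 568 CPM in the pools labelled Rag1-/-. Of its 6 markers, however, 1 had a positive and 5 a negative log2 fold change. The sums of the B cell, myeloid, fibroblast, endothelial and melanocyte lists overlapped between the groups. Gata3, the defining factor of ILC2s, had levels of 199 to 319 CPM in WT and of 369 to 558 CPM in the pools labelled Rag1-/- (log2 fold change 0.92, adjusted p 0.0998). Il23r, a receptor gene of ILC3s, had 1.16 to 1.40 CPM in WT and 12.2 to 17.0 CPM in the pools labelled Rag1-/- (3.53, adjusted p 0.0306). Of the T cell list, Trac had 1.78 to 3.04 CPM and 6.91 to 13 CPM (2.11, adjusted p 0.0349), and Cd3e had 5.46 to 7.98 CPM and 7.42 to 9.44 CPM (0.32, adjusted p 0.553). The whole T cell list summed to 65.4 to 129 CPM in WT and to 327 to 384 CPM in the pools labelled Rag1-/-. None of the 14 ILC2 markers was at 0 in any library. Their list summed to 1299 to 2502 CPM in WT and to 4213 to 6194 CPM in the pools labelled Rag1-/-. Markers of keratinocytes were present too, and Krt5 alone reached 5019 to 6091 CPM in WT. The part of these cell types in the levels of the 10 members was not tested.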

How the data were processed

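RNA of 5 pools of sorted dILC2s (3 WT, 2 labelled Rag1-/-) was sequenced as single reads of 50 bases from TruSeq libraries that do not keep the strand. By the submitters' notes and the study's methods, the authors aligned reads to GRCm38 with STAR 2.5, counted them per gene with featureCounts 1.5.0-p1, and deposited raw counts. They also deposited a normalized signal per symbol, scaled by a size factor for each library (DESeq2 1.8.2 is named). The sources name different annotation releases, and 99.9% of 47310 matched genes overlapped GENCODE M21.

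Groups came from the labels. The study's methods call the pools independent biological replicates and give no dates of sorting or library preparation, so p-values measure the spread between these pools. Genes kept by filterByExpr were tested with edgeR 4.0.16 in R 4.3.3 (TMM, quasi-likelihood, Benjamini-Hochberg). CPM were computed from the counts. Replicate numbers do not recur across the genotypes, and none was used as a block. A symbol found in several rows was represented by the row with most counts. Beside the 10 members, at most 3 genes per direction were named from each pathway list by smallest adjusted p among the called, or 2 if none was called, with defining cell markers; other names complete a count or, as for Chuk, Ikbkb, Ikbkg, Il6 and Ccl20, were chosen after their values were seen. Some genes of these lists are not reported here by name. The members and lists were chosen with earlier results of these data known. The highest correlation between log2 CPM of any 2 libraries was 0.989, so no library was a copy of another. Alternatives were DESeq2 1.42.0, RLE scaling, library size alone, scaling on 30 leukocyte genes, testing every counted gene, testing genes with 10 or more counts throughout, adjusted p alone, limma 3.58.1 on log2(signal + 1), thinning to 8050562 counts, and leaving out each library. Promoter windows were RefSeq's.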

Additional observations from a re-analysis of the deposited data

How the results depend on the processing

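No paired analysis was possible because the groups share no replicate numbers. The main results were 1090 of 19011 genes called (5.73%), 0 of 10 members and 13 of 88 other pathway genes (14.8%). With DESeq2 these were 2464 of 19011 (13%, with 1216 higher and 1248 lower), 1 (Nfkbie, 1.05) and 23 (26.1%, with 22 higher and 1 lower). With no filter they were 2645 of 29909 (8.84%, with 1157 higher and 1488 lower), 1 (Nfkbie, 1.01, adjusted p 0.00851) and 23 (26.1%, with 22 higher and 1 lower). Scaled on leukocyte genes they were 14030 (15 higher, 14015 lower), 6 (all lower) and 58 (all lower). With at least 10 counts in every library (Nfkbie, 1.03, adjusted p 0.0476), with thinned counts (Nfkbie, 1.10, adjusted p 0.0417) and with the adjusted p alone (Relb, 0.85) 1 member was called. Left-out libraries gave 0 to 2414 genes, 0 to 1 members (Nfkb1, 1.12 without Rag1-/- pool 7) and 0 to 12 pathway genes (8 higher and 4 lower at 12). Where 0 genes were called, 3537 to 5233 genes had an unadjusted p under 0.05. On leukocyte scaling the log2 fold changes were -1.30 for Nfkb1, -1.47 for Nfkb2, -1.75 for Rel, -2.27 for Rela, -1.43 for Relb, -2.38 for Nfkbia, -2.91 for Nfkbiz, -1.08 for Nfkbie, -1.72 for Tnfaip3 and -2.20 for Bcl3, and of the other named genes -0.80 for Nfkbid, -0.82 for Map3k14, -1.21 for Irak2, -1.54 for Tnip1, -0.41 for Ptprc, -1.31 for Gata3, -0.26 for Il1rl1, -0.29 for Il7r, -1.90 for Cd3e and -0.11 for Trac. Scaled to all genes, Il7r was higher in the pools labelled Rag1-/-, with log2 fold changes of 1.39 to 2.08 when a library was left out. Rela also turned negative with no filter (-0.025), with at least 10 counts (-0.0081) and with limma (-0.014). Left-out libraries gave -0.22 to 0.24 for Rela, -0.10 to 0.026 for Nfkbia, -0.048 to 0.25 for Bcl3, 0.68 to 1.12 for Nfkb1 and -1.18 to 0.063 for Nkiras2. The cause of these shifts was not tested, beyond the scaling itself. There were 2 pools against 3, 1 of them at 8050562 counts, and the counting error of the members was at most 4.40%.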
